A study of Homo sapiens with 6 samples.

Results

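The 9 genes described here encode enzymes that make or interconvert amino acids outside the serine route: ASNS for asparagine, ASS1 for arginine, ALDH18A1, PYCR1 and OAT for proline and ornithine, CBS and CTH for transsulfuration, and BCAT1 and BCAT2 for the branched-chain amino acids. They were chosen by name, with earlier results of these data known. All 9 were among the 58735 genes of the count table and among the 14179 genes that passed the filter on low counts. The RNA came from H2452, an established human pleural mesothelioma line, grown in RPMI medium with fetal bovine serum. Cells carried a lentivirus for Cas9 and a guide RNA and were sorted for the mCherry marker of that vector, so each library came from a mixed population rather than 1 clone. The 3 sgCtrl libraries carried a scrambled guide, and the 3 sgNF2-1 libraries carried 1 guide against NF2, the gene of the tumour suppressor merlin. The vector, the sort and the medium were common to both groups, and a single guide and a single line were sequenced. Whether the replicates were separate cultures is not stated in the labels. The study's methods call its replicates biological in general, without describing the cultures behind these libraries. The p-values therefore measure the spread between these libraries, which may be technical.

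Total counts were 14782423 to 17416463 per library. NF2 itself was at 71.4 ± 3.36 normalised counts (CPM; mean ± SD, n = 3) in sgCtrl and at 44.2 ± 6.77 CPM (n = 3) in sgNF2-1, and it fell by 0.69 on the log2 scale (adjusted p = 7.9e-06, edgeR). CPM are counts per 1000000 counts of the library after scaling by the trimmed mean of M-values, and "adjusted p" is the Benjamini-Hochberg value of edgeR's quasi-likelihood test over all 14179 genes, called under 0.05. Of 10 mesothelial markers, 9 were above 1 CPM in both groups, with KRT5 close to 0. The means of these markers moved both ways between sgCtrl and sgNF2-1: MSLN was at 36.4 and 57.6 CPM, WT1 at 10.0 and 4.86, PDPN at 67.9 and 28.0, KRT19 at 566 and 296, and CALB2 at 4.33 and 3.02. Of 3 hepatocyte markers, ALB and APOA1 were at or near 0, and the summed level of the 3 was 0.634 to 1.52 CPM in sgCtrl and 1.05 to 2.07 CPM in sgNF2-1. The leukocyte marker PTPRC was at 0 in every library, CD3E had at most 2 counts, and CD79A had at most 5 counts. CD14 alone carried the leukocyte sum, at 134 to 148 CPM in sgCtrl and 64.3 to 70.7 CPM in sgNF2-1. The endothelial sum was 6.19 to 8.53 CPM in sgCtrl and 1.93 to 3.24 CPM in sgNF2-1. Of the fibroblast markers, DCN and LUM were at 0 throughout. The part of these marker differences in the results was not tested.

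Asparagine synthetase (ASNS) moves an amide group from glutamine to aspartate. Argininosuccinate synthase (ASS1) joins citrulline to aspartate on the way to arginine, and its loss makes mesothelioma and other tumours depend on arginine from outside. Proline is made from glutamate by ALDH18A1 and the pyrroline-5-carboxylate reductases, of which PYCR1 is a mitochondrial form, while OAT links the same intermediate to ornithine. CBS and CTH carry the sulfur of homocysteine to cysteine, and BCAT1 in the cytosol and BCAT2 in mitochondria exchange amino groups between the branched-chain amino acids and glutamate. Transcription of several of these genes is known to respond to amino acid shortage through ATF4, which binds with C/EBP proteins, whereas merlin acts upstream of YAP and its TEAD partners.

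The RefSeq promoter table (GRCh38.p14) held 15 transcription starts for 7 of the 9 genes. PYCR1 and BCAT2 had no entry. The 250 bases before each start were searched on both strands for 3 short motifs: the C/EBP-ATF core TGATGNAA, the TEAD core GGAATG and the E-box CACGTG, which reads the same on both strands. No printed match overlapped another. These sites are shown because they are the only matches found, with the motif in capitals and the bases written 5′ to 3′ on the strand of the gene.
ASNS, C/EBP-ATF core, 60 bases before a start, minus strand, chr7:97872458-97872487: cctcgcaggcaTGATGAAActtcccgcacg
BCAT1, C/EBP-ATF core, 40 bases before a start, minus strand, chr12:24949131-24949160: tgtcttcctgcTGATGCAAtccgctaggtc
BCAT1, TEAD core, 82 bases before another start, minus strand, chr12:24949411-24949440: gccagtgatgacGGAATGgcaatcacattt
ASS1, E-box, 65 bases before a start, plus strand, chr9:130444878-130444907: gcgcgtccccgcCACGTGtccccggtcacc
ALDH18A1, E-box, 130 bases before its start, minus strand, chr10:95656830-95656859: gggctggcccgcCACGTGgagcgctggctt
Over all 35116 starts in the table, windows of the same length held the C/EBP-ATF core in 3.14%, the TEAD core in 11.9% and the E-box in 6.34%. All 30 bases of the ASNS site and of both BCAT1 sites lie in GENCODE 29 exons of the same gene. They are upstream of the RefSeq start named but inside a longer annotated transcript. The ASS1 and ALDH18A1 sites lie in no GENCODE 29 exon. The ASS1 site is downstream of the other listed start of ASS1, at chr9:130444707. A match is a description of the letters and not a measured binding site. No match to the 3 motifs was found before the listed starts of CBS, CTH or OAT.

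Between the groups, 4 of the 9 genes were called higher in sgNF2-1 (CBS, PYCR1, BCAT2 and ASS1), 1 was called lower (OAT), and 4 were not called (ASNS, ALDH18A1, BCAT1 and CTH). In these bulk libraries, fewer cells of a type and less RNA per cell cannot be told apart. Over all tested genes, 17.7% were called higher and 16.6% lower. The study's methods used DESeq2 and state a p under 0.05 with a log2 fold change beyond 0.5. Whether that p is adjusted is not clear there. With the unadjusted p of edgeR, these thresholds were passed by 3 of the 9, CBS, PYCR1 and BCAT2, all higher. Among all tested genes, 20% passed them in either direction. The groups did not overlap in CPM for 6 of the 9, the 5 called genes and ASNS, against 45.3% of all tested genes. The median log2 fold change was 0.38 over the 9 genes and -0.0025 over all tested genes. Because the 9 were chosen with earlier results known, these contrasts with all tested genes are descriptions and not tests.

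**Figure D1:**
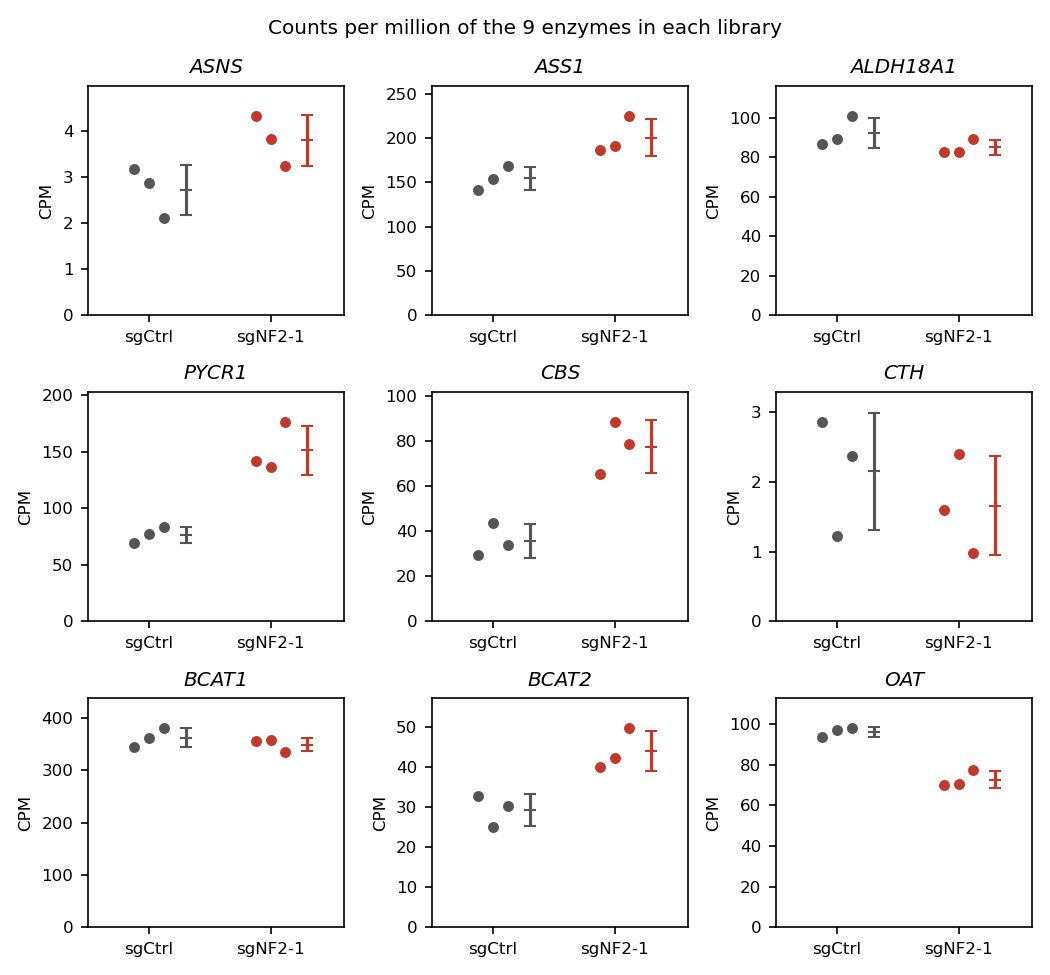
CPM (y axis, from 0, its own scale in each panel) of the 9 enzymes in the 3 sgCtrl (grey) and 3 sgNF2-1 (red) libraries; points are libraries and the bar beside them is the mean ± SD. The groups separate for CBS, PYCR1, BCAT2, ASS1, ASNS and OAT, and overlap for ALDH18A1, BCAT1 and CTH.

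The largest rise was that of cystathionine beta-synthase (CBS; ENSG00000160200, chr21:43053191-43076943, hg38), which joins homocysteine and serine into cystathionine. Its counts were 463, 719 and 514 in sgCtrl and 1147, 1364 and 1122 in sgNF2-1. Every sgNF2-1 library was above every sgCtrl library. In CPM the level went from 35.7 ± 7.38 (SD, n = 3) to 77.4 ± 11.7 (n = 3), or 217% of sgCtrl, with a log2 fold change of 1.12 ± 0.12 (SE; adjusted p = 1.2e-07, edgeR). The hg38 annotation holds a near-identical copy of CBS on the same chromosome, CBSL. Whether the cells hold CBSL as a separate gene was not tested. Of the distinct 100-base windows of the GENCODE 29 transcripts of CBS, 50.3% also occur in transcripts of CBSL. The split of reads between these rows is therefore uncertain. How shared reads were counted is not given in the sources used, so both rows and their sum may lack some CBS reads. CBSL had counts of 18, 15 and 83 in sgCtrl and of 44, 153 and 27 in sgNF2-1. These scattered widely and the groups overlapped, and the log2 fold change of CBSL was 0.94 ± 0.50 (SE; adjusted p = 0.15, edgeR). CBSL made up 2.04% to 13.9% of the summed count of the pair. The sum gave 38.2 ± 7.17 CPM (n = 3) in sgCtrl and 82.2 ± 15.4 CPM (n = 3) in sgNF2-1, a log2 fold change of 1.10 ± 0.13 (SE; adjusted p = 1.8e-07, edgeR).

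Cystathionine gamma-lyase (CTH; ENSG00000116761, chr1:70411218-70439851) releases cysteine from the product of CBS. It was scarce, with counts of 45, 20 and 36 in sgCtrl and of 28, 37 and 14 in sgNF2-1. The groups overlapped, and the log2 fold change was -0.36 ± 0.37 (SE; adjusted p = 0.48, edgeR), with an interval of 2 standard errors from -1.10 to 0.37. Leaving out 1 library at a time moved it from -0.71 (without sgNF2-1 replicate 2) to -0.10 (without sgCtrl replicate 1). The ratio of CTH to the sum of CBS and CBSL in FPKM, which divides by gene length and library total, was 0.256, 0.0755 and 0.155 in the sgCtrl libraries and 0.0644, 0.0641 and 0.0337 in the sgNF2-1 libraries. All 3 sgNF2-1 values lay below all 3 sgCtrl values.

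Among the other genes of methionine, transsulfuration, cysteine and sulfide metabolism, 15 of 20 were tested. Of these, 4 were called higher and 3 lower, beside 17.7% higher and 16.6% lower among all tested genes. Upstream of CBS, MAT2A, which makes S-adenosylmethionine, rose from 272 ± 8.90 CPM to 331 ± 13.0 CPM (n = 3 each), and its log2 fold change was 0.29 ± 0.08 (SE; adjusted p = 0.0062, edgeR). AHCY, which releases homocysteine from S-adenosylhomocysteine, rose by 0.67 ± 0.09 (SE, log2; adjusted p = 1.5e-06, edgeR), from 204 ± 21.4 CPM to 325 ± 21.0 CPM (n = 3 each). MTRR, which keeps methionine synthase active, rose by 0.35 on the log2 scale (adjusted p = 0.0034, edgeR). Methionine synthase itself (MTR) was not called, with a log2 fold change of -0.10 (adjusted p = 0.51, edgeR). MAT2B was not called either, at -0.03 (adjusted p = 0.85, edgeR). On the cysteine side, MPST, a mercaptopyruvate sulfurtransferase, rose by 0.70 ± 0.10 (SE, log2; adjusted p = 3.7e-06, edgeR). CSAD, the decarboxylase on the way from cysteine to taurine, fell by 1.10 ± 0.22 (SE, log2; adjusted p = 0.00037, edgeR). Its counts were 258, 185 and 108 in sgCtrl and 88, 73 and 93 in sgNF2-1, so the sgCtrl libraries spread more than the sgNF2-1 libraries. SUOX, sulfite oxidase, fell by 0.64 on the log2 scale (adjusted p = 0.004, edgeR). Elsewhere in the list, AHCYL1, named for its likeness to AHCY, fell by 0.32 (adjusted p = 0.0028, edgeR).

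In the proline branch, PYCR1 (ENSG00000183010, chr17:81932384-81942412), which completes proline from pyrroline-5-carboxylate, had counts of 1097, 1264 and 1273 in sgCtrl and of 2493, 2108 and 2515 in sgNF2-1. No library of one group came near the other. The level was 76.8 ± 7.14 CPM (n = 3) in sgCtrl and 152 ± 21.8 CPM (n = 3) in sgNF2-1, which was 197% of sgCtrl, with a log2 fold change of 0.98 ± 0.10 (SE; adjusted p = 2.5e-08, edgeR). Exons of other genes cover 29.7% of its exon bases, with 15.6% by AC145207.4 on the opposite strand, which had 0 counts in every library. Counts of the other overlapping genes are not reported here. How shared reads were counted is not given in the sources used, so the row may not hold all PYCR1 reads.

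ALDH18A1 (ENSG00000059573, chr10:95605929-95656706), the enzyme that turns glutamate into the shared intermediate and feeds PYCR1, was not called. Its counts were 1371, 1464 and 1533 in sgCtrl and 1460, 1281 and 1271 in sgNF2-1. The log2 fold change was -0.12 ± 0.09 (SE; adjusted p = 0.30, edgeR), with an interval of 2 standard errors from -0.29 to 0.05. OAT (ENSG00000065154, chr10:124397303-124418976), which connects ornithine to the same intermediate, had counts of 1472, 1589 and 1487 in sgCtrl and of 1233, 1086 and 1100 in sgNF2-1. Each sgNF2-1 library was below each sgCtrl library. It fell from 96.1 ± 2.39 CPM to 72.6 ± 4.06 CPM (n = 3 each), which was 75.5% of sgCtrl, with a log2 fold change of -0.41 ± 0.08 (SE; adjusted p = 5e-04, edgeR). The ratio of ALDH18A1 to OAT in FPKM was 0.829 to 0.927 in sgCtrl and 1.04 to 1.07 in sgNF2-1.

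PYCR3, the cytosolic form, rose from 11.2 ± 0.643 CPM to 15.4 ± 2.13 CPM (n = 3 each), with a log2 fold change of 0.46 ± 0.14 (SE; adjusted p = 0.011, edgeR). Of the proline list, 6 of 8 genes were tested, 1 was called higher and 2 lower, beside 17.7% and 16.6% of all tested genes. The 2 that fell, P4HA1 and P4HA2, hydroxylate prolines in collagen rather than make or degrade free proline. P4HA1 fell by 1.08 ± 0.09 (SE, log2; adjusted p = 5e-10, edgeR), from 130 ± 7.71 CPM to 61.9 ± 3.24 CPM (n = 3 each). For proline breakdown, PRODH had 1 count in 1 sgNF2-1 library and 0 elsewhere, where a count of 0 allows up to 3 counts, or 0.17 to 0.211 CPM per library. ALDH4A1, which takes the intermediate back to glutamate, was at 16.6 ± 0.971 CPM and 14.1 ± 2.53 CPM (n = 3 each), with a log2 fold change of -0.24 ± 0.14 (SE; adjusted p = 0.20, edgeR).

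ASS1 (ENSG00000130707, chr9:130444929-130501274) was expressed in these cells, at the highest FPKM of the 9 enzymes. Its counts were 2236, 2518 and 2555 in sgCtrl and 3281, 2942 and 3205 in sgNF2-1, with no overlap. The level rose from 155 ± 13.3 CPM to 201 ± 21.2 CPM (n = 3 each), which was 130% of sgCtrl, with a log2 fold change of 0.38 ± 0.09 (SE; adjusted p = 0.0018, edgeR). In FPKM, the limma test passed with a pseudocount of 1 (adjusted p = 0.040) and missed with a pseudocount of 0.1 (adjusted p = 0.062). None of its 100-base windows occurred in transcripts of other genes, and of its pseudogene rows only ASS1P12 held more than a few counts, at 5 to 18 per library. ASL, which splits argininosuccinate into arginine, was at 22.2 ± 0.849 CPM and 27.0 ± 6.99 CPM (n = 3 each), with a log2 fold change of 0.28 ± 0.14 (SE; adjusted p = 0.12, edgeR).

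Of the arginine, urea cycle, nitric oxide, creatine and polyamine list, 14 of 20 genes were tested. By edgeR, 4 were called higher and 0 lower, beside 17.7% higher and 16.6% lower among all tested genes. The count of lower genes was also 0 at an unadjusted p under 0.05, and both DESeq2 and limma called 0 lower. OTC, NOS1 and NOS2 had 0 counts in all 6 libraries. The mitochondrial arginase ARG2 had 47 to 87 counts, and its log2 fold change was 0.09 ± 0.23 (SE; adjusted p = 0.79, edgeR). Ornithine decarboxylase (ODC1), the first enzyme of polyamine synthesis and another user of ornithine, rose by 0.73 ± 0.08 (SE, log2; adjusted p = 9.9e-08, edgeR), from 443 ± 10.5 CPM to 734 ± 11.4 CPM (n = 3 each). Spermidine synthase (SRM) rose by 0.45 on the log2 scale (adjusted p = 0.00029, edgeR), and spermine oxidase (SMOX) rose by 0.66 (adjusted p = 2.1e-05, edgeR). Other polyamine enzymes of the list were not called. The log2 fold change of spermine synthase (SMS) was 0.00 (adjusted p = 0.99, edgeR). That of AMD1 was 0.10 (adjusted p = 0.43, edgeR) and that of SAT1 was 0.08 (adjusted p = 0.46, edgeR). AGMAT had only 6 to 18 counts per library, and its log2 fold change was 0.47 ± 0.50 (SE, adjusted p = 0.50, edgeR). Its interval of 2 standard errors ran from -0.53 to 1.48. DDAH1, which clears methylated arginines, rose by 0.35 on the log2 scale (adjusted p = 0.01, edgeR). DDAH2 was not called, with a log2 fold change of -0.19 (adjusted p = 0.13, edgeR).

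ASNS (ENSG00000070669, chr7:97852118-97872542) was scarce. Its counts were 50, 47 and 32 in sgCtrl and 76, 59 and 46 in sgNF2-1. In CPM the lowest sgNF2-1 library, at 3.23, stood just above the highest sgCtrl library, at 3.17. The means were 2.71 ± 0.547 CPM and 3.79 ± 0.545 CPM (n = 3 each), with a log2 fold change of 0.48 ± 0.25 (SE; adjusted p = 0.14, edgeR). The row may not hold all ASNS reads, since 44.6% of its exon bases are also exons of AC079781.5, a processed transcript on the same strand, and how reads shared by genes were counted is not given in the sources used here. AC079781.5 had counts of 62, 63 and 44 in sgCtrl and of 67, 36 and 74 in sgNF2-1, with a log2 fold change of 0.08 ± 0.26 (SE; adjusted p = 0.85, edgeR). With both rows summed, the log2 fold change was 0.27 (adjusted p = 0.28, edgeR). Of the 5 listed genes of asparagine and aspartate-derived metabolism, 3 were tested and 1, ASNSD1, was called higher, beside 17.7% of all tested genes. ASNSD1 rose by 0.51 ± 0.11 (SE, log2, adjusted p = 0.00052, edgeR).

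BCAT1 (ENSG00000060982, chr12:24810022-24949459), the cytosolic form, had counts of 5428, 5937 and 5780 in sgCtrl and of 6266, 5511 and 4763 in sgNF2-1. The groups overlapped, and the log2 fold change was -0.05 ± 0.08 (SE; adjusted p = 0.65, edgeR), with an interval of 2 standard errors from -0.21 to 0.11. BCAT2 (ENSG00000105552, chr19:48795062-48811029), the mitochondrial form, had counts of 514, 409 and 457 in sgCtrl and of 704, 649 and 707 in sgNF2-1, with no overlap. It rose from 29.2 ± 3.93 CPM to 43.9 ± 5.08 CPM (n = 3 each), which was 150% of sgCtrl, with a log2 fold change of 0.59 ± 0.11 (SE; adjusted p = 0.00026, edgeR). Per length, BCAT1 was still the more abundant: the ratio of BCAT1 to BCAT2 in FPKM was 4.08, 5.61 and 4.89 in sgCtrl and 3.44, 3.28 and 2.60 in sgNF2-1.

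Downstream of the aminotransferases, 17 of 18 listed genes of branched-chain breakdown were tested. By edgeR, 3 were called higher and 2 lower, beside 17.7% and 16.6% of all tested genes. DESeq2 called 2 of the listed genes higher, and limma called 1 higher. BCKDK, the kinase that switches the branched-chain ketoacid dehydrogenase off, rose from 56.6 ± 1.33 CPM to 68.7 ± 4.74 CPM (n = 3 each), with a log2 fold change of 0.28 ± 0.09 (SE; adjusted p = 0.016, edgeR). PPM1K, the phosphatase that switches it back on, fell by 0.96 ± 0.16 (SE, log2; adjusted p = 4.4e-05, edgeR), with counts of 200, 231 and 153 in sgCtrl and of 112, 100 and 86 in sgNF2-1. Among the subunits, BCKDHB fell by 0.37 ± 0.11 (SE, log2; adjusted p = 0.012, edgeR). DBT was at 32.5 ± 0.631 CPM and 30.3 ± 2.01 CPM (n = 3 each), with a log2 fold change of -0.10 ± 0.10 (SE; adjusted p = 0.49, edgeR). BCKDHA had at most 1 count per library. Exons of other genes cover 64.6% of its exon bases, so its level could not be read from these counts. ACAT1, a thiolase at a late step of isoleucine breakdown and in ketone body metabolism, rose by 0.30 on the log2 scale (adjusted p = 0.015, edgeR).

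**Figure D2:**
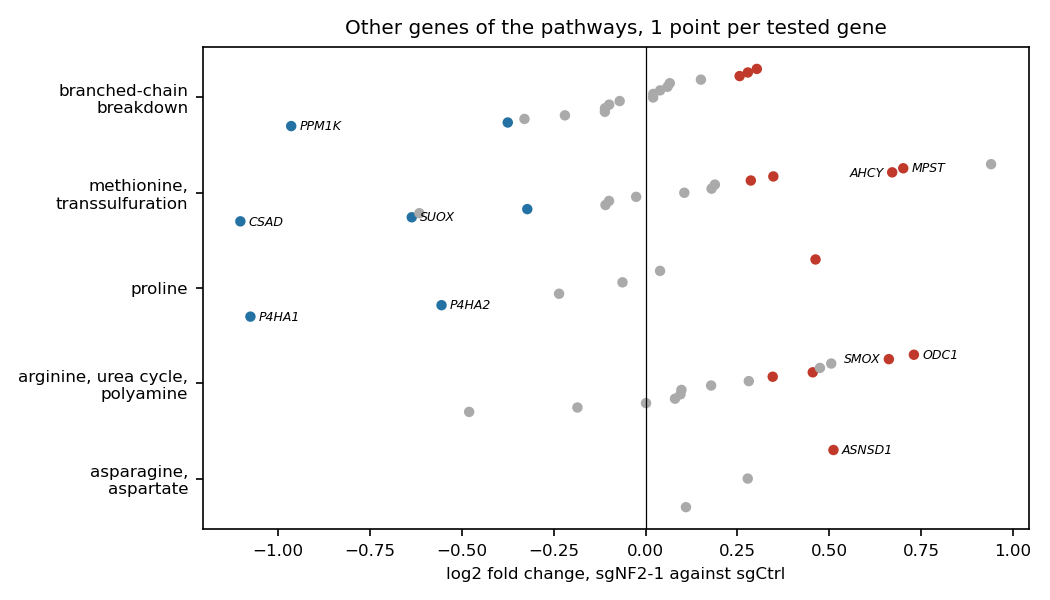
Log2 fold change, sgNF2-1 against sgCtrl (x axis), of the 55 tested genes other than the 9 enzymes, 1 point each, in 5 lists (y axis); red points were called higher, blue lower and grey not called. Names are given for called genes beyond 0.5, with CSAD and P4HA1 farthest to the left and ODC1 farthest to the right among called genes.

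Over the 5 lists, 71 genes were listed, 55 were tested, 13 were called higher and 7 lower, beside 17.7% higher and 16.6% lower among all tested genes. No list was tested as a whole. The median log2 fold change of the tested genes was 0.07. Some of them share exon bases with other genes, namely ALDH4A1 (41.1%), ARG2 (37.4%), ASL (17.6%) and MAT2A (12.4%), and their values carry that uncertainty. For ARG2 the partner was VTI1B, with 611 to 776 counts per library, and for MAT2A it was GGCX, with 449 to 578, both on the opposite strand.

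The order of the enzymes was compared in FPKM, since raw counts depend on gene length. That length takes in all annotated exon bases of a gene, 11775 for BCAT1 and 3050 for ASS1. Which transcripts the cells make was not tested, so the order may depend on that length. In sgCtrl, ASS1 was at 48.0 ± 4.08 FPKM, BCAT1 at 29.2 ± 1.45, OAT at 26.9 ± 0.659, PYCR1 at 25.2 ± 2.33 and ALDH18A1 at 23.3 ± 1.87 (n = 3 each). BCAT2 followed at 6.08 ± 0.811 FPKM, then CBS at 4.98 ± 1.04, CTH at 0.843 ± 0.330 and ASNS at 0.578 ± 0.117 (n = 3 each). The libraries of these neighbours overlapped for OAT and PYCR1, PYCR1 and ALDH18A1, BCAT2 and CBS, and CTH and ASNS. In sgNF2-1, ASS1 stood at 61.8 ± 6.43 FPKM, and PYCR1 moved to second place at 49.3 ± 6.99 FPKM, its highest library just reaching the lowest ASS1 library. BCAT1 at 27.8 ± 1.07 FPKM, ALDH18A1 at 21.2 ± 0.868 and OAT at 20.1 ± 1.09 came next, and the last pair overlapped. CBS, at 10.7 ± 1.63 FPKM, stood above BCAT2 at 9.05 ± 1.04, and their libraries overlapped. ASNS at 0.799 ± 0.115 FPKM and CTH at 0.645 ± 0.278 were again lowest and overlapped (n = 3 each). In these levels CBS and ASNS are the most exposed to the shared reads described for them.

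**Figure D3:**
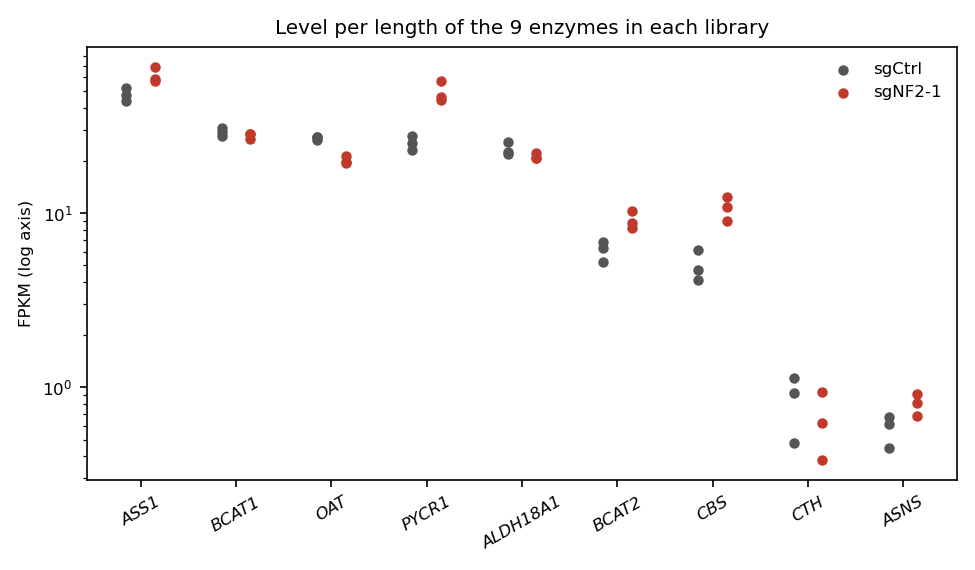
FPKM (y axis, log scale) of the 9 enzymes in each library, sgCtrl grey and sgNF2-1 red, ordered by the sgCtrl mean. ASS1 is highest in both groups, and CTH and ASNS lie at or below 1.12 FPKM in every library.

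Ratios of paired enzymes were compared by a 2-sided exact permutation test on log2 FPKM ratios, which with 3 against 3 libraries cannot give a p below 0.1. The exact permutation p was 0.1 (adjusted over the 5 ratios tested, 0.125) for each of 3 ratios: BCAT1 to BCAT2 differed by -0.64, ALDH18A1 to OAT by 0.29 and CTH to the CBS pair by -1.48 on the log2 scale. The ratio of ASNS to ASS1 differed by 0.12 (exact permutation p = 0.6), within a spread of 0.428 and 0.354 (SD) in the groups.

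**Figure D4:**
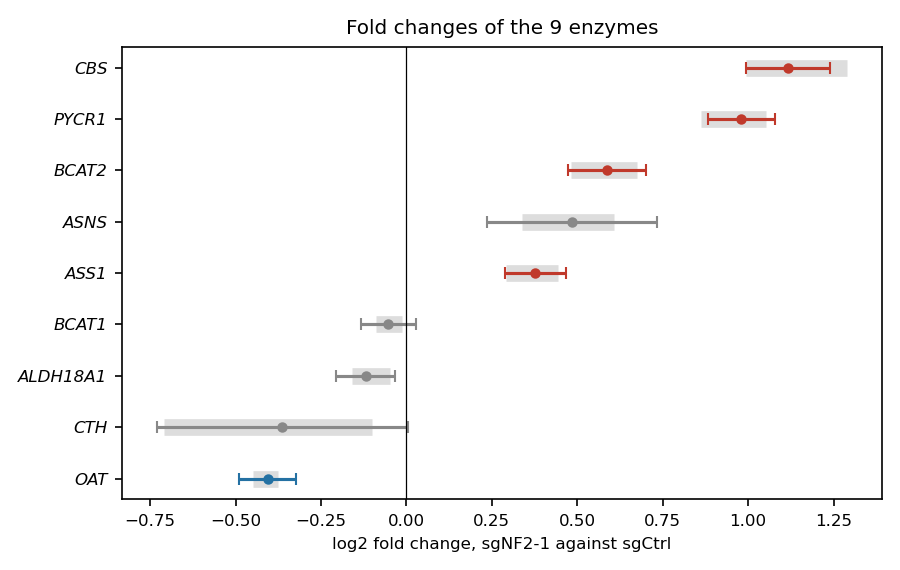
Log2 fold change, sgNF2-1 against sgCtrl (x axis), of the 9 enzymes (y axis); points are edgeR estimates with bars of 1 standard error, red called higher, blue called lower, grey not called, and the pale band is the range over fits that leave out 1 library. The bands stay on 1 side of 0 for all 9, at 0.99 to 1.29 for CBS and -0.45 to -0.38 for OAT; the widest is that of CTH, -0.71 to -0.10, and that of ASNS is 0.34 to 0.61.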

How the data were processed

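Counts per gene and FPKM of 6 H2452 libraries were used. The authors deposited raw counts per gene and, in a second table, FPKM values; per the labels' processing notes HISAT2, StringTie 1.3.3b and featureCounts 1.5.0-p3 were used with hg38, with their roles, strand setting and treatment of shared reads not given in the sources used here. Groups came from the sample titles. Genes were kept by filterByExpr (minimum count 10, total 15), scaled by TMM and tested with edgeR 4.0.16 (quasi-likelihood, R 4.3.3) over 14179 genes, with group as the only term. DESeq2 1.42.0 and limma 3.58.1 (log2(FPKM + 1), mean FPKM of at least 0.5, 13038 genes) were alternatives, as were other scalings, filters, a replicate block and leaving out each library. The scripts were tested on simulated data. Exon overlap and shared 100-base windows came from GENCODE 29, where 58724 of 58735 genes had the same start and end. The members and gene lists were chosen with earlier results of these data known. Named were the 9 members, listed genes that share a reaction or substrate with them, and the 2 largest called changes in each direction. Other called list genes, MTRR, SUOX, AHCYL1, SRM, SMOX, DDAH1, ASNSD1, PPM1K, ACAT1 and P4HA2, were named after their values were seen. So were DDAH2, MTR, MAT2B, the polyamine enzymes SMS, AMD1, SAT1 and AGMAT, and the genes at 0. Some listed genes, and 1 of the 5 ratios tested, are not reported here.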

Additional observations from a re-analysis of the deposited data

How the results depend on the processing

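The count of members called lower was 1 under every alternative run. The count called higher was 4 under all but limma on log2(FPKM + 0.1), where it was 3, and limma on log2(FPKM + 1) with no filter, where it was 2 and the other pathway genes called higher numbered 7 rather than 13. Without the filter, ASS1 (0.36, adjusted p = 0.087) and BCAT2 (0.51, adjusted p = 0.051) missed the threshold; ASS1 also missed it with a pseudocount of 0.1 (0.36, adjusted p = 0.062). The cause was not tested. Leaving out 1 library at a time gave 4 members called higher and 1 lower each time, 2 to 4 past the study's thresholds, and 10 to 14 pathway genes higher and 6 to 9 lower. The log2 fold change of NF2 ranged from -0.82 to -0.61. The ratios ranged from -0.76 to -0.52 for BCAT1 to BCAT2, 0.26 to 0.34 for ALDH18A1 to OAT, -1.94 to -1.06 for CTH to the CBS pair, and -0.12 to 0.31 for ASNS to ASS1. Same-numbered libraries did not deviate together (correlations of -0.0442, 0.0906 and 0.0707), so the numbers were not taken as pairs; with a replicate block 4 members were called higher and 1 lower, 3 passed the study's thresholds, and 13 pathway genes were called higher and 9 lower, and NF2 was at -0.70. Low counts limit CTH and ASNS most among the 9, at 14 to 76 counts per library, and the ASNS row may lack shared reads.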

Other observations

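MTAP, which returns methylthioadenosine from polyamine synthesis to methionine, had 0 counts in all 6 libraries, where a count of 0 allows up to 3 counts, or 0.17 to 0.211 CPM per library, covering counting error only. It was named after its values were seen, and 9.58% of its exon bases are also exons of other genes. Enzymes of polyamine synthesis were measured at higher levels than MTAP. SRM was at 151 CPM in sgCtrl and 207 CPM in sgNF2-1, and SMS was at 209 CPM in both groups. AMD1 was at 90.0 CPM in sgCtrl and 96.2 CPM in sgNF2-1.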
